A study of Mus musculus with 17 samples.

Results

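Light-zone-like and dark-zone-like cells were compared within one sorted population of germinal centre (GC) B cells, those whose CDK2 activity was high. A cell was called light-zone-like when it held 2 or more UMIs (unique molecular identifiers, one per captured transcript) of *Cd83* and *Cd86* together and at most 1 UMI of *Cxcr4*. A cell was called dark-zone-like when it held 2 or more UMIs of *Cxcr4* and 0 of *Cd83* and *Cd86*. Cells were thus selected on the UMI counts of these 3 genes, which are given only as a description. The rule found 3098 light-zone-like and 568 dark-zone-like cells, 3666 in all, among the 7448 kept cells with a mouse of origin in this population and the 69340 cell barcodes of the series. A further 1040 cells passed both thresholds and 2742 passed neither, and these were left out.

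The study followed B1-8hi B cells, which recognize the hapten NP, after transfer into recipients primed with ovalbumin and immunized with NP-ovalbumin. The transferred cells carried DHB-tdTomato at *Rosa26*, a reporter that leaves the nucleus when CDK2 phosphorylates it. The methods name sorted cells with this reporter alone or with an H2B-GFP transgene as well, and mice were not told apart by it here. All mice of this experiment, males and females aged 5 to 12 weeks at use, received 5 µg of anti-DEC-OVA, an antibody to DEC-205 (encoded by *Ly75*) that carries ovalbumin into B cells, 7 days after immunization, and their GC B cells were collected 72 h later. Image-based sorting separated cells with a cytoplasmic reporter (CDK2-high) from cells with a nuclear reporter (CDK2-low), and 5′ droplet libraries were made from each pool. The labels name the pools only by the letters C and N, which were read as cytoplasmic and nuclear from the methods, and every CDK2-high or CDK2-low value rests on that reading. The reporter line derives from 1 founder. No untreated mice are part of these pools, so both classes come from treated animals. The paper assigned zones by gene signatures and describes B cells at 72 h as mostly dark-zone cells. The sizes of the classes here follow the UMI rule and are not shares of the zones. Of the 9 mice listed, 2 had hashtags without signal, and 7 mice (M1, M3 to M7 and M10) were compared, each with its own light-zone-like and dark-zone-like cells.

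Germinal centres divide into a dark zone, where B cells proliferate and mutate their antibody genes, and a light zone, where they collect antigen from follicular dendritic cells and present its peptides on MHC class II to T follicular helper cells. CXCR4 draws cells to the dark zone, whereas CD83 and CD86 mark cells of the light zone. Help through CD40 activates NF-kB and, in selected cells, *Myc*, after which these cells return to the dark zone to divide.

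The classes differed in depth, and a rule on UMI counts is itself tied to depth. The median number of UMIs per cell lay between 8133 and 10810 by mouse in light-zone-like cells and between 12158 and 15990 in dark-zone-like cells. Dark-zone-like cells were deeper in 7 of 7 mice, by 1.16-fold to 1.77-fold. Summed libraries held 1736770 to 7979433 UMIs per mouse for the light-zone-like class and 505071 to 1816035 for the dark-zone-like class. At the edge of the light-zone rule, 797 cells with exactly 2 UMIs of *Cd83* and *Cd86* were inside and 1069 cells with 1 UMI were outside, with medians of 9252 and 8995 UMIs per cell. At the edge of the dark-zone rule, 251 cells with exactly 2 UMIs of *Cxcr4* were inside and 440 cells with 1 UMI were outside, with medians of 13092 and 9671 UMIs. Values are therefore also given from a fit at matched depth, in which the cells of the pool were divided into 3 strata by UMI number and the 2 classes of a mouse were compared within each stratum (depth could still differ inside a stratum), and after thinning. For the latter, cells under 6850 UMIs were left out, the others were thinned to that number and the classes were assigned anew, which left 2083 light-zone-like and 437 dark-zone-like cells. Mitochondrial UMIs made up 3.07 to 3.96% of the UMIs of light-zone-like and 2.59 to 3.03% of those of dark-zone-like cells by mouse, and their part in the results was not tested. The CDK2-high and CDK2-low pools shared 6 cell barcodes.

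**Figure D1:**
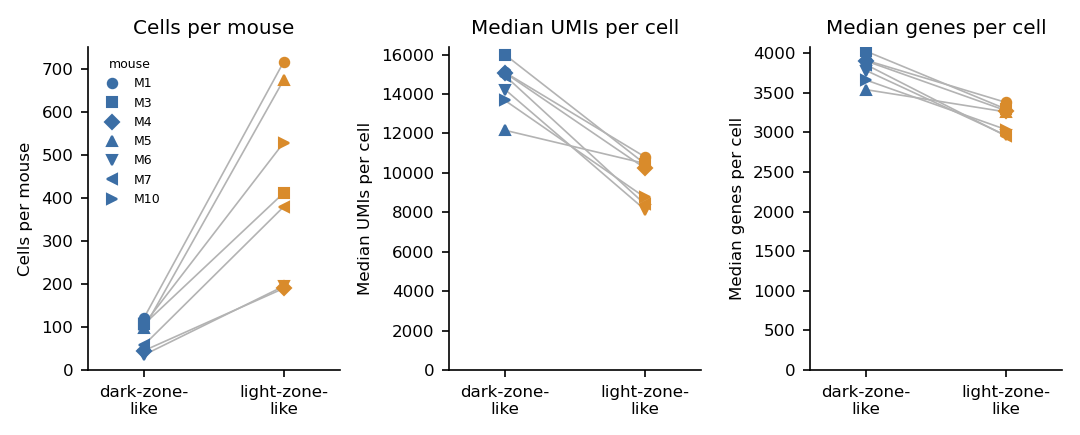
Number of cells (left), median UMIs per cell (middle) and median genes per cell (right) of dark-zone-like (blue) and light-zone-like (orange) CDK2-high cells, with 1 symbol and 1 grey line per mouse. Every mouse had more light-zone-like cells, from 190 to 717 against 35 to 121, and every mouse had deeper dark-zone-like cells.

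Both classes were GC B cells by their markers. The 9 GC B cell markers, among them *Bcl6*, *Fas* and *S1pr2*, summed to 4295 to 4578 UMIs per 1000000 UMIs (CPM, not rescaled between sums for these markers) by mouse in light-zone-like cells and to 3511 to 3708 in dark-zone-like cells. Of the 10 T cell markers 8 were in the table, of which *Cd3e* and *Il7r* gave 0 UMIs and *Cd3d* gave 10 in light-zone-like and 2 in dark-zone-like cells. *Lck*, a kinase listed as a T cell marker, was present in both classes (medians 64.1 and 39.8 CPM) and made up nearly all of the summed level of that list, 54.9 to 99.0 against 37.4 to 56.2 CPM. The 10 myeloid or dendritic markers summed to at most 1.13 CPM in any mouse and class, with 4 at 0. Of the stromal markers *Pecam1* alone passed the filter on low counts, with medians of 54.4 and 29.1 CPM, and *Col1a1*, *Col3a1* and *Pdgfrb* were at 0. Erythroid markers summed to 9.02 to 16.1 CPM in light-zone-like and 3.09 to 10.04 CPM in dark-zone-like cells. The part of these markers in the results was not tested. The genes that defined the classes cannot check them. Mean UMIs per cell by mouse were 3.07 to 3.97 for *Cd83*, 1.68 to 1.95 for *Cd86* and 0.282 to 0.362 for *Cxcr4* in the light-zone-like class, and 2.92 to 3.40 for *Cxcr4* in the dark-zone-like class.

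To find what else separated the classes, UMI counts were summed per mouse and class and tested across all genes with the mouse as a block, leaving out *Cd83*, *Cd86* and *Cxcr4*. Of 8424 genes, 3920 passed an edgeR adjusted p of 0.05, which is 46.5% of the genes tested. Of these 1964 (23.3%) were higher in light-zone-like and 1956 (23.2%) in dark-zone-like cells. The median log2 fold change, light minus dark, was 0.01. At matched depth 2309 of 7099 genes passed (32.5% of genes, 15.8% higher in light-zone-like and 16.7% in dark-zone-like cells), after thinning 1850 of 6997 (26.4%, as 12.9% and 13.5%), and within cell-cycle phases 3420 of 6684 (51.2%, as 26.5% and 24.7%). Since close to every other gene passed the test, the counts of any group below are to be read against these shares, and the size of a change is given beside each call. Log2 fold changes are light minus dark throughout, with the standard error (SE) of the fit.

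The genes most raised in light-zone-like cells included surface receptors such as *Fcer2a*, *Slamf1*, *Cr2* and *Cd72*. *Fcer2a* encodes CD23, a low-affinity IgE receptor (chr8:3731737-3744183 in GRCm39, minus strand). Its level lay between 142 and 267 CPM in light-zone-like sums of the 7 mice (median 203) and between 10.1 and 43.1 CPM in dark-zone-like sums (median 29.2). The classes did not overlap, and the log2 fold change was 3.0 ± 0.10 (SE, edgeR adjusted p = 2.64e-50). *Il4i1*, an amino acid oxidase induced by IL-4, had the largest difference of the 12 largest rises. It lay between 33.7 and 81.2 CPM in light-zone-like sums (median 67.1) and between 0 and 10.5 CPM in dark-zone-like sums (median 4.73), a log2 fold change of 3.41 ± 0.16. *Slamf1* encodes SLAM, an adhesion receptor shared by B and T cells, and was 123 to 194 CPM (median 157) against 25.03 to 32.6 CPM (median 28.6), with no overlap and a log2 fold change of 2.44 ± 0.09. *Cr2* encodes the complement receptor CD21, by which B cells and follicular dendritic cells bind antigen coated with complement. It was 57.9 to 107 CPM against 12.3 to 26.0 CPM, a log2 fold change of 2.18 ± 0.11.

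The rest of the 12 largest rises were *Hivep3* (log2 fold change 2.78), *Nxpe2* (2.52), *Samsn1* (2.18), *Cd72* (2.04), *Nfkbia* (2.02), *Slfn2* (1.97), *Dock10* (1.92) and *Lmo2* (1.72). *Samsn1* encodes an adaptor that restrains B cell activation, *Cd72* an inhibitory co-receptor of the B cell receptor, *Dock10* an activator of small GTPases that IL-4 induces in B cells, and *Lmo2* a transcriptional co-factor known as a marker of GC B cells. In each of these 12 genes every light-zone-like sum lay above every dark-zone-like sum, as was the case for 7.87% of all genes tested. All 12 also passed the test at matched depth, where *Il4i1* was at 3.26, *Fcer2a* at 2.66 and *Cr2* at 1.83.

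**Figure D2:**
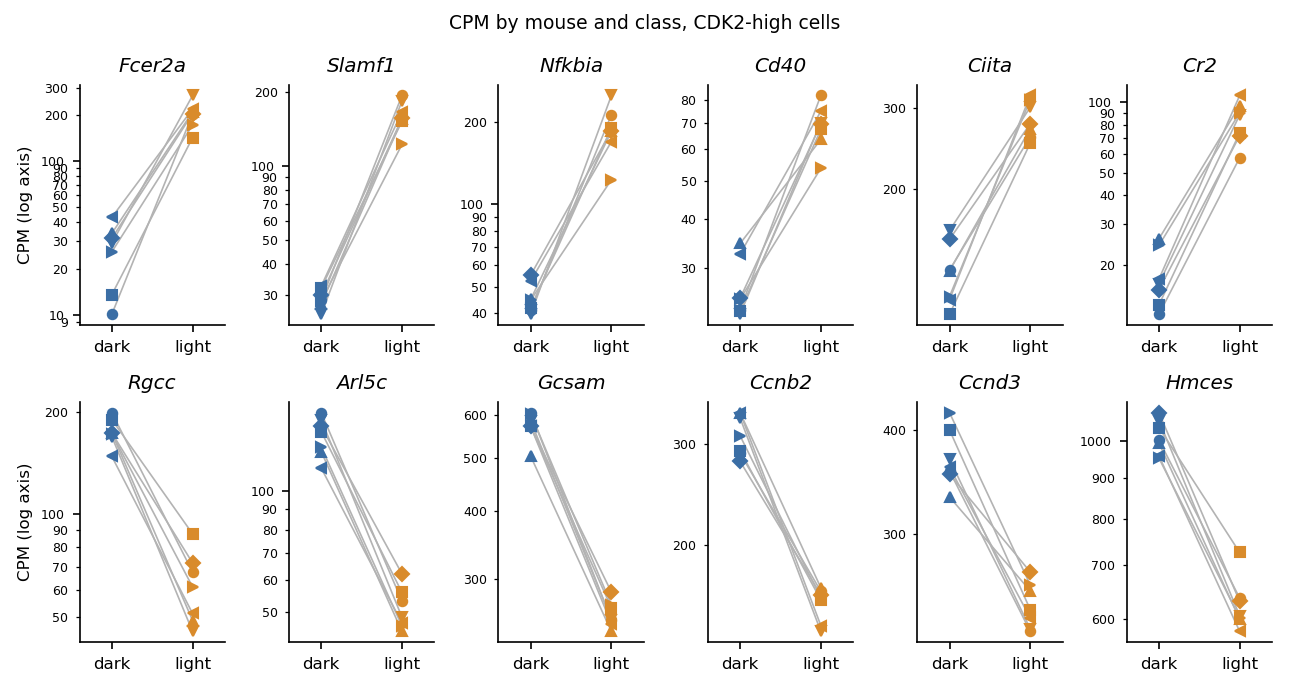
CPM (log axis, one scale per gene) of 12 named genes in the dark-zone-like (blue) and light-zone-like (orange) sums of the 7 mice, with the symbols of the plot of cell numbers and 1 line per mouse. The upper row holds genes that were higher in light-zone-like cells and the lower row genes that were higher in dark-zone-like cells, and in none of the 12 did the classes overlap.

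Genes of the CD40 and NF-kB response were higher in light-zone-like cells. The classes were chosen on *Cd83* and *Cd86*, so genes that vary together with these 2 are favoured by the rule itself. Of the 20 genes listed 17 could be tested, 16 were higher in light-zone-like cells and 0 in dark-zone-like cells, and the list's median log2 fold change was 1.09. *Nfkbia* encodes the inhibitor IkB-alpha, itself an NF-kB target, and lay between 123 and 250 CPM (median 186) in light-zone-like sums and between 39.6 and 55.1 CPM (median 44.6) in dark-zone-like sums, a log2 fold change of 2.02 ± 0.08 (edgeR adjusted p = 2.29e-42). *Cd40*, the receptor of T cell CD40 ligand, was 53.7 to 82.1 CPM against 22.9 to 34.7 CPM, a log2 fold change of 1.36 ± 0.10. Neither gene overlapped between the classes. *Tnfaip3* encodes A20, which ends NF-kB signalling, and changed by 1.42 ± 0.21. The subunits *Nfkb2* (1.31), *Relb* (1.22), *Rel* (0.74) and *Nfkb1* (0.56) passed the test, as did *Bcl3* (1.17), a nuclear partner of NF-kB, and *Nfkbie* (1.19), another inhibitor. *Tnfrsf1b*, a TNF receptor, was the member that did not pass (0.58). At matched depth 13 of 15 testable members were higher in light-zone-like cells, and after thinning 11 of 13.

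The sequences upstream of these genes were compared, since NF-kB genes are known to be NF-kB targets themselves. The kappaB consensus, the 10-base site that NF-kB dimers recognize, was searched on both strands of the 250 bases before each RefSeq transcription start (GRCm38.p6). At least 1 match stood before 6 of the 16 list genes with a promoter in the table (37.5%), against 347 of 6859 tested genes (5.06%) and 1204 of 27025 genes in all (4.46%). The list was drawn up as CD40 and NF-kB response genes, so its share describes the list and not the 2 classes. *Ebi3*, among the 6, did not pass the filter on low counts. Among called genes the share was 6.68% of those higher in light-zone-like cells and 4.06% of those higher in dark-zone-like cells. Of the 12 largest rises 1 of 11 with a promoter held a match (9.09%), and of the 12 largest falls 0 of 10. Genes with several starts had several chances of a match. A match describes letters, not binding. The windows of an inhibitor pair and of 2 subunits, chosen because they hold a match, are printed with the matches in capitals. Each runs 5′ to 3′ on the strand of the gene. They are chr12:55492648-55492897 (minus strand) for *Nfkbia*, whose match begins 29 bases before the start, chr17:45555450-45555699 (plus) for *Nfkbie* at 106 bases, chr19:46304487-46304736 (plus) for the first of the *Nfkb2* starts, with matches from 39, 38 and 11 bases on either strand, and chr11:23770970-23771219 (minus) for *Rel*, with overlapping matches from 92 and 91 bases.
Nfkbia: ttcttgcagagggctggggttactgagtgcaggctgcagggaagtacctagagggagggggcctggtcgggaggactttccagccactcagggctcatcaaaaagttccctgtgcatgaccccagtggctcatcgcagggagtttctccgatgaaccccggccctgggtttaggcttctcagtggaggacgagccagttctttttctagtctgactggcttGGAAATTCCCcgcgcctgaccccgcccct
Nfkbie: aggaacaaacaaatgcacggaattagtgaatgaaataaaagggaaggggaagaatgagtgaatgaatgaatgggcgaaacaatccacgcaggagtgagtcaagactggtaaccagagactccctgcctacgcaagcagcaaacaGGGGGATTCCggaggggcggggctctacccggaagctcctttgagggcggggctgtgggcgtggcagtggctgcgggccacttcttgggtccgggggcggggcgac
Nfkb2: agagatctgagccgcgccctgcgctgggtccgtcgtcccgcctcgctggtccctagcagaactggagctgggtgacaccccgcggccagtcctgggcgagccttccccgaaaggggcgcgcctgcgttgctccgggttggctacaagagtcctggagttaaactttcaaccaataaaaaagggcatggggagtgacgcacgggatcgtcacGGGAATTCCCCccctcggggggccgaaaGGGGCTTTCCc
Rel: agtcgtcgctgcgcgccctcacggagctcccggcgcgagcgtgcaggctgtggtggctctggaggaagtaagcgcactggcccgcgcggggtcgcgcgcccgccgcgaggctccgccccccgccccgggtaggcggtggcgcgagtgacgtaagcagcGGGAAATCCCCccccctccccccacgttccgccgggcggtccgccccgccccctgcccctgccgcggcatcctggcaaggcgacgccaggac

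Genes of the dialogue with T cells followed. Of 9 testable T cell interaction genes 8 were higher in light-zone-like cells and 1, *Slamf6*, in dark-zone-like cells (median log2 fold change 1.05). *Icosl*, the ligand of ICOS on T follicular helper cells, was 20.9 to 35.2 CPM against 1.57 to 10.5 CPM, a log2 fold change of 1.88 ± 0.17. *Il4ra*, the IL-4 receptor chain, changed by 1.08 ± 0.09 and the BAFF receptor gene *Tnfrsf13c* by 1.05. *Ly75* encodes DEC-205, the receptor that the treatment targets. It lay between 48.3 and 85.0 CPM (median 76.8) in light-zone-like sums and between 27.1 and 44.9 CPM (median 34.5) in dark-zone-like sums, with no overlap and a log2 fold change of 0.92 ± 0.10 (edgeR adjusted p = 8.60e-15). *Slamf6*, a receptor of the same family as *Slamf1*, went the other way (-0.51 ± 0.06), at 102 to 124 CPM against 148 to 184 CPM.

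All 12 genes of MHC class II presentation were higher in light-zone-like cells, with a median log2 fold change of 0.71, and 11 remained so at matched depth, where *Ctss* fell out of the call. The largest change was that of *Ifi30*, a lysosomal thiol reductase that unfolds antigen, at 429 to 608 CPM against 187 to 232 CPM (log2 fold change 1.39 ± 0.06). *Ciita*, the master regulator of class II transcription (chr16:10297923-10347694 in GRCm39), was 252 to 319 CPM against 107 to 163 CPM (1.13 ± 0.06). The structural chains *H2-Aa* (0.71), *H2-Ab1* (0.79) and *H2-Eb1* (0.61) and the invariant chain gene *Cd74* (0.70) moved by similar sizes. *H2-Oa* (1.08) and *H2-DMb2* (0.86) belong to DO and DM, the molecules that edit the peptide cargo, and *H2-Ob*, the partner of *H2-Oa*, changed by 0.43.

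B cell receptor signalling genes were higher in light-zone-like cells in 12 of 16 cases and lower in 1 (median 0.43). At matched depth 10 of 16 were higher and 1 lower (median 0.30). Over all cells, besides *Cr2* and *Cd72*, the largest changes were in *Ptpn6*, the phosphatase SHP-1 that dampens receptor signals (1.06 ± 0.05), and in *Prkcb*, the kinase that links the receptor to NF-kB (0.96 ± 0.06). The inhibitory co-receptor *Cd22* (0.96) and the inhibitory Fc receptor *Fcgr2b* (0.64) rose as well, whereas the proximal kinase gene *Syk* was lower in light-zone-like cells (-0.19 ± 0.05) and *Btk* (0.02) and *Blnk* (0.01) did not pass the test.

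Immediate-early genes, which respond within minutes to receptor signals, were few above the filter. Of 9 testable genes 7 were higher in light-zone-like cells and 1, *Btg2*, an anti-proliferative gene, in dark-zone-like cells (-0.35). *Egr1* was 16.0 to 38.8 CPM against 1.23 to 6.30 CPM, a log2 fold change of 2.88 ± 0.21 with no overlap between the classes. *Ier2* (1.35), *Junb* (1.27) and the activation marker *Cd69* (0.87) followed.

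Genes of cholesterol synthesis and uptake were higher in light-zone-like cells in 12 of 16 cases and lower in 1, *Idi1* (median 0.51), whose call was made in 7 of 22 alternatives. The sterol sensor *Insig1* changed by 0.89 ± 0.09, the transcription factor gene *Srebf2* by 0.76 ± 0.07, and the synthesis enzyme *Cyp51* by 0.73 ± 0.07. In the fit at matched depth 13 of 16 were higher in light-zone-like cells and 0 lower.

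**Figure D3:**
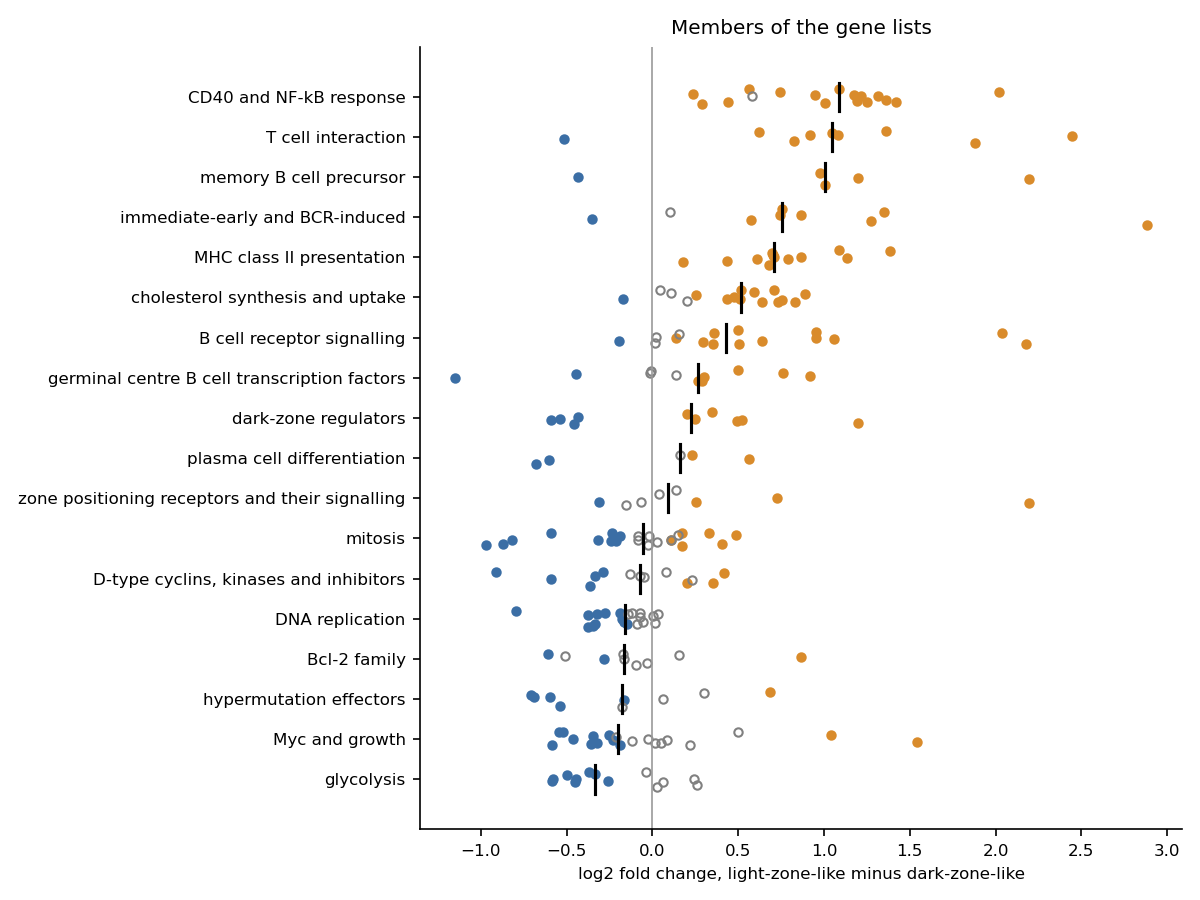
Log2 fold change, light minus dark, of every tested member of the 18 gene lists (rows, ordered by their median, the black bar). Filled points passed the edgeR adjusted p of 0.05 and are orange where higher in light-zone-like and blue where higher in dark-zone-like cells, and open points did not pass. Members of the CD40 and NF-kB and MHC class II lists sit on the right, as do those of T cell interaction except *Slamf6* (-0.51), whereas mitosis and dark-zone regulators hold members on both sides.

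The largest differences in favour of dark-zone-like cells were smaller than those in favour of light-zone-like cells. *Rgcc*, a regulator of the cell cycle and of complement responses (chr14:79526185-79539085 in GRCm39), was 148 to 199 CPM in dark-zone-like sums (median 173) and 45.3 to 87.6 CPM in light-zone-like sums (median 61.2), a log2 fold change of -1.50 ± 0.07 (edgeR adjusted p = 2.54e-38). *Arl5c*, a small GTPase of the ARF family, was 114 to 157 CPM against 44.8 to 62.2 CPM (-1.43 ± 0.07). *Gcsam* encodes a GC adaptor that slows B cell migration, and was 505 to 607 CPM in dark-zone-like sums and 240 to 284 CPM in light-zone-like sums (-1.15 ± 0.05). These 3 genes did not overlap between the classes. The others were the prostaglandin D synthase gene *Hpgds* (-1.41), the selenium carrier *Selenop* (-1.36), *Lmo7* (-1.16), the LIM co-factor *Lmo4* (-1.07), *Pafah1b3* (-1.07), the RNA helicase *Ddx19a* (-1.05), the deubiquitinase *Otub2* (-1.03), the ubiquitin ligase *Ttc3* (-1.01) and *Smco4* (-1.0). In 11 of the 12 every dark-zone-like sum lay above every light-zone-like sum, which held for 8.95% of all genes tested. These 12 too were picked for size and for 1 direction in all mice, which favours such separation. In *Selenop* the light-zone-like sum of mouse M3 (48.2 CPM) passed the dark-zone-like sum of mouse M5 (48.0 CPM). All 12 passed the test at matched depth, with *Rgcc* at -1.30, *Arl5c* at -1.41 and *Gcsam* at -1.05.

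The list of dark-zone regulators did not move one way, with 6 of 10 members higher in light-zone-like and 4 in dark-zone-like cells (median log2 fold change 0.23). At matched depth 3 of 9 were higher in light-zone-like and 4 in dark-zone-like cells (median 0.02), and after thinning 4 and 4 of 10. Higher in dark-zone-like cells were *Ccnd3*, *Polh*, *Foxp1* (-0.45) and *Tcf3* (-0.44). *Ccnd3* encodes cyclin D3, which sustains division in the dark zone, and was 332 to 420 CPM (median 361) in dark-zone-like sums and 229 to 270 CPM (median 243) in light-zone-like sums, with no overlap and a log2 fold change of -0.59 ± 0.05 (edgeR adjusted p = 1.30e-18). *Tcf3* encodes the transcription factor E2A. *Foxo1*, the transcription factor that sets the dark-zone programme, was 145 to 210 CPM in light-zone-like and 126 to 174 CPM in dark-zone-like sums. Its log2 fold change was 0.25 ± 0.06 over all cells (edgeR adjusted p = 0.000367) and 0.02 at matched depth (edgeR adjusted p = 0.845), so that no difference was called among cells of like depth. *Bach2*, a repressor of plasma cell fate, was higher in light-zone-like cells over all cells (0.52 ± 0.04) and by 0.19 at matched depth. *Klf2*, a quiescence factor, was higher in light-zone-like cells (1.20 ± 0.19) from few UMIs, a call lost after thinning (0.67, edgeR adjusted p = 0.0874).

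Most downstream effectors of somatic hypermutation that changed were higher in dark-zone-like cells (5 of 9, with 1 higher in light-zone-like cells). *Hmces*, which shields abasic sites, was 952 to 1084 CPM against 579.5 to 726.5 CPM (-0.69 ± 0.04). *Neil1*, a glycosylase of oxidized bases, changed by -0.60 ± 0.05 and *Polh*, the error-prone polymerase eta, by -0.54 ± 0.06. These 3 kept their call at matched depth, at -0.66, -0.59 and -0.55. *Ung*, the uracil glycosylase, changed by -0.71 ± 0.12 over all cells and by -0.37 at matched depth, where it did not pass. *Msh6*, a mismatch repair subunit, was at -0.16 and was not called higher in dark-zone-like cells at matched depth. *Neil3*, a glycosylase expressed in S phase, was the member higher in light-zone-like cells (0.68 ± 0.07). At matched depth 3 of 9 members were higher in dark-zone-like and 1 in light-zone-like cells. The list's median was -0.08 there, against -0.18 over all cells.

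The list of GC B cell transcription factors, which also holds *Gcsam* and *S1pr2*, had 6 of 11 members higher in light-zone-like and 2 in dark-zone-like cells. At matched depth it was 4 and 2 of 11, and the list's median moved from 0.27 to 0.10. Over all cells *Ebf1* changed by 0.92 ± 0.05, *Mef2c* by 0.76 ± 0.05 and *Irf8* by 0.50 ± 0.05. *Bcl6*, the master regulator of the GC, changed by 0.29 ± 0.06 over all cells and by 0.12 at matched depth, where it did not pass (edgeR adjusted p = 0.0849). *Pou2af1*, the co-activator OCA-B, was higher in dark-zone-like cells (-0.45 ± 0.04). Of the 5 testable plasma cell genes, *Jchain* (-0.68 ± 0.04), the joining chain of secreted antibody, and *Mzb1* (-0.60 ± 0.06), an endoplasmic reticulum chaperone of antibody assembly, were higher in dark-zone-like cells, and the elongation factor gene *Ell2* (0.57 ± 0.08) and *Ssr4* (0.23, a call lost after thinning at 0.13) in light-zone-like cells. The plasma cell regulator *Prdm1* gave 6 UMIs in light-zone-like and 0 in dark-zone-like cells.

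Receptors that place cells in the follicle ranged from low to moderate levels. *Gpr183* (EBI2), which draws B cells to the outer follicle, was 7.89 to 16.6 CPM in light-zone-like sums and 0 to 6.09 CPM in dark-zone-like sums (log2 fold change 2.20 ± 0.30). *Cxcr5*, the receptor for the follicular chemokine CXCL13, was 71.4 to 96.3 CPM against 45.9 to 51.2 CPM (0.73 ± 0.08). *S1pr2*, which confines cells to the GC, did not pass (0.14), and *Rgs13*, a brake on chemokine signals, was higher in dark-zone-like cells (-0.31 ± 0.08), a call lost after thinning (-0.30, edgeR adjusted p = 0.0564). Below the filter, the egress receptor *S1pr1* had 91 UMIs in light-zone-like and 59 in dark-zone-like cells, a ratio of 0.408 in CPM (95% exact interval 0.291 to 0.576, for counting error only). Of the memory precursor genes, *Ccr6*, a chemokine receptor of that fate, had 91 UMIs in light-zone-like and 0 in dark-zone-like cells, so that it was at least 8.02-fold higher against the floor of 3 UMIs over the class. *Cd38* (0.97), the co-repressor *Tle3* (1.005), *Klf2* and *Gpr183* passed in favour of light-zone-like cells and the complement regulator *Cd55* (-0.43) in favour of dark-zone-like cells. At matched depth *Cd55* was the 1 member of this list that could be tested, and it passed (-0.71). Its call was made in 13 of 22 alternatives and was lost with DESeq2, without the replicate block, with stricter classes and without M1, M3 or M5, among others. After thinning 0 of 2 testable members were higher in light-zone-like cells.

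The D-type cyclins split between the classes. *Ccnd2*, encoding cyclin D2, which B cells induce on activation, did not pass the filter on low counts. It had 211 UMIs in light-zone-like cells (1.59 to 12.7 CPM by mouse, not rescaled) and 1 UMI in dark-zone-like cells, a ratio of 55.8 (95% exact interval 9.91 to 2210, for counting error only). In the fit without the filter its edgeR adjusted p was 4.25e-17. *Ccnd1* had 2 and 0 UMIs, and *Ccnd3* went the other way (above). *Cdkn1b*, the inhibitor p27 of CDK2, was 11.0 to 21.0 CPM in dark-zone-like and 6.97 to 12.2 CPM in light-zone-like sums (-0.91 ± 0.17), and *Cdkn2c*, an inhibitor of CDK4 and CDK6, was higher in light-zone-like cells (0.41 ± 0.09, a call lost after thinning at 0.28, edgeR adjusted p = 0.109). Over all cells 5 of 13 testable members of this list were higher in dark-zone-like and 3 in light-zone-like cells. At matched depth it was 2 and 2 of 13, and after thinning 1 and 1 of 12. *Ccne1* (-0.36) and *Ccne2* (-0.33), the cyclin E partners of CDK2, passed over all cells but not at matched depth (-0.13 and -0.14), and *Cdk2* itself was at -0.05.

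*Myc* and its downstream growth genes parted. *Myc* was 22.4 to 61.9 CPM (median 39.9) in light-zone-like sums and 2.09 to 25.2 CPM (median 17.4) in dark-zone-like sums, higher in light-zone-like cells in 7 of 7 mice although the ranges overlapped, with a log2 fold change of 1.04 ± 0.15 (edgeR adjusted p = 1.41e-09). *Batf*, an AP-1 factor that works with *Myc* after T cell help, changed by 1.54 ± 0.13. Among the other members of the list 10 were higher in dark-zone-like cells, such as the nucleolar chaperone *Npm1* (-0.59 ± 0.05) and the mitochondrial chaperone *Hspd1* (-0.54 ± 0.06). Among cells of matched depth 5 members were higher in light-zone-like and 2 in dark-zone-like cells, with *Npm1* at -0.19 and *Hspd1* at -0.13, whereas *Myc* was at 1.28.

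Glycolysis genes were higher in dark-zone-like cells in 8 of 13 cases and in light-zone-like cells in 0, led by *Pgk1* (-0.58 ± 0.05), *Pgam1* (-0.58 ± 0.06), *Pkm* (-0.50 ± 0.05) and *Aldoa* (-0.45 ± 0.06). Matched for depth, 6 were still higher in dark-zone-like and 1 in light-zone-like cells, and the list's median moved from -0.33 to -0.08. DNA replication genes were higher in dark-zone-like cells in 11 of 20 cases and in light-zone-like cells in 0 (median -0.16). *Gins2* (-0.38), *Cdc6* (-0.37) and the helicase subunit *Mcm6* (-0.35) were among them. At matched depth 2 replication genes were higher in dark-zone-like, among them *Mcm6*, and 1 in light-zone-like cells (*Uhrf1*, a partner of DNA methylation upkeep), and the list's median was 0.02. After thinning 4 were higher in dark-zone-like and 0 in light-zone-like cells (median -0.08). In 2 settings chosen after seeing the data, the tally was 7 and 0 in the deepest stratum alone (median -0.14) and 3 and 2 within depth and phase (median 0.03). The replication result thus turned with the setting.

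**Figure D4:**
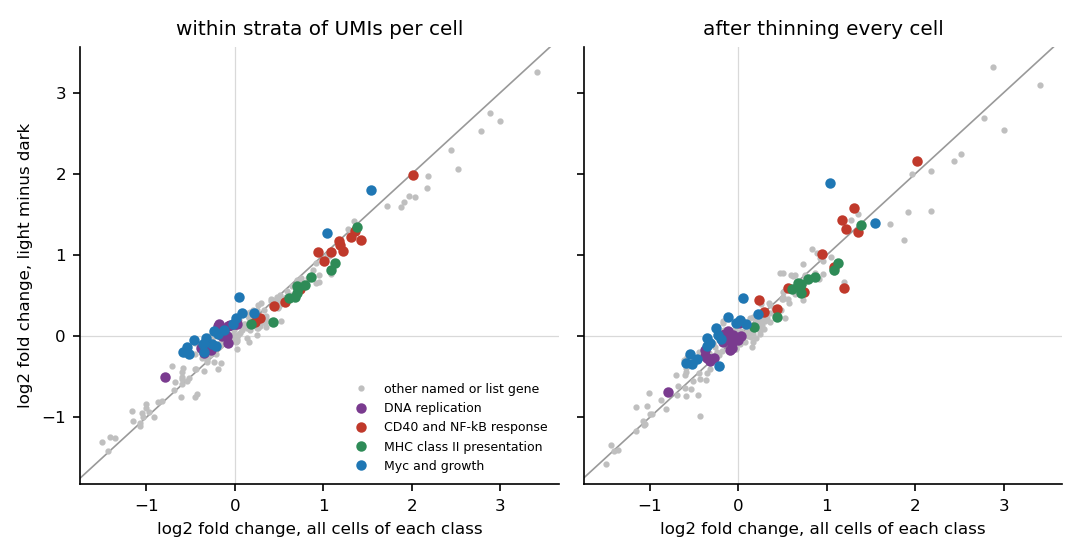
Log2 fold change, light minus dark, of named and listed genes within strata of UMIs per cell (left) and after thinning to 6850 UMIs (right), against that over all cells (x axis), with the line of equality in grey. Genes of the CD40 and NF-kB (red) and MHC class II (green) lists lie near the line, whereas most DNA replication (purple) and *Myc* and growth (blue) genes with values below 0 on the x axis lie above it, nearer to 0.

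Mitosis genes moved in both directions at once, 9 of 22 higher in dark-zone-like and 6 in light-zone-like cells (median -0.05). Within phases the tally was 13 and 3 (median -0.22), and with light-zone-like cells called from *Cd83* alone it was 12 and 5. At matched depth it was 7 and 6 (median -0.02), and among cells of the deepest stratum alone, a setting chosen after seeing the data, it was 5 and 7 (median 0.04), so that the balance of the list turned with the setting. Higher in dark-zone-like cells were *Ccnb2*, at 280 to 341 CPM against 141 to 168 CPM (-0.97 ± 0.06), *Cdc20* (-0.87 ± 0.06), the centromere histone gene *Cenpa* (-0.82 ± 0.06) and *Ccnb1* (-0.59 ± 0.07). Cyclin B drives entry into mitosis and CDC20 activates the complex that ends it. Higher in light-zone-like cells were the spindle motor gene *Kif11* (0.49 ± 0.05) and *Top2a* (0.41 ± 0.04), the topoisomerase that untangles chromosomes. All 6 kept their direction and call at matched depth and when the classes were compared within phase. The G2/M gene set that called the phases shares many members with this list, so the comparison within phase is not independent of these genes.

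Of the Bcl-2 family, *Bcl2l11*, encoding the death inducer BIM, was higher in dark-zone-like cells (-0.61 ± 0.10, a call lost after thinning at -0.29, edgeR adjusted p = 0.189) and *Bcl2l1*, encoding the survival factor BCL-XL, in light-zone-like cells (0.86 ± 0.21, at 10.4 to 18.2 CPM against 2.33 to 10.4 CPM), though it could not be tested at matched depth or after thinning. *Bak1* was at -0.28, a call that was lost at matched depth (-0.23), after thinning (-0.09) and without mouse M1. *Mcl1*, which GC B cells need to survive, was at -0.03.

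Cell-cycle phases were assigned from S-phase and G2/M gene sets. In G1 were 16.0% ± 3.29 (SD, n = 7) of light-zone-like and 16.0% ± 2.42 of dark-zone-like cells, with an exact two-sided sign-flip p of 0.984. In S phase were 34.6% ± 3.78 and 40.9% ± 9.03 (exact p = 0.0625). In G2/M were 49.4% ± 5.17 and 43.1% ± 7.89, higher in light-zone-like cells in 6 of 7 mice (exact p = 0.0313, and 0.0938 after adjustment over the 3 phases). The difference did not pass after adjustment. With 7 mice the smallest p that this test can give is 0.0156. With phases called on the thinned counts but the classes kept as first assigned (2385 light-zone-like and 522 dark-zone-like cells) the G2/M shares were 49.4% and 41.1% (exact p = 0.0469). Free RNA from lysed cells enters such phase calls, and its part was not tested.

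Mutation load was read from the antibody sequences, and no difference between the classes was called. Cells with the paired *Ighv1-72* heavy and *Iglv1* light chain of the transferred B1-8hi cells were counted, 2061 light-zone-like and 358 dark-zone-like, over 689 bases. They carried 3.38 ± 0.314 (SD, n = 7) and 3.33 ± 0.671 base differences per cell. The difference per mouse was 0.0541 ± 0.555, light higher in 4 of 7 mice (exact two-sided sign-flip p = 0.781). By mouse, light-zone-like cells had between 2.88 (M1) and 3.67 (M6) and dark-zone-like cells between 2.71 (M4) and 4.44 (M10). Heavy chains of a switched class were carried by 96.0% ± 4.73 of light-zone-like and 97.6% ± 2.70 of dark-zone-like cells (exact p = 0.438). The spread between mice of the difference was wider than its mean in both readouts. Without mouse M3 the mean difference in mutations was -0.0898 and without M4 it was -0.00478. These data do not show that the classes are alike.

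**Figure D5:**
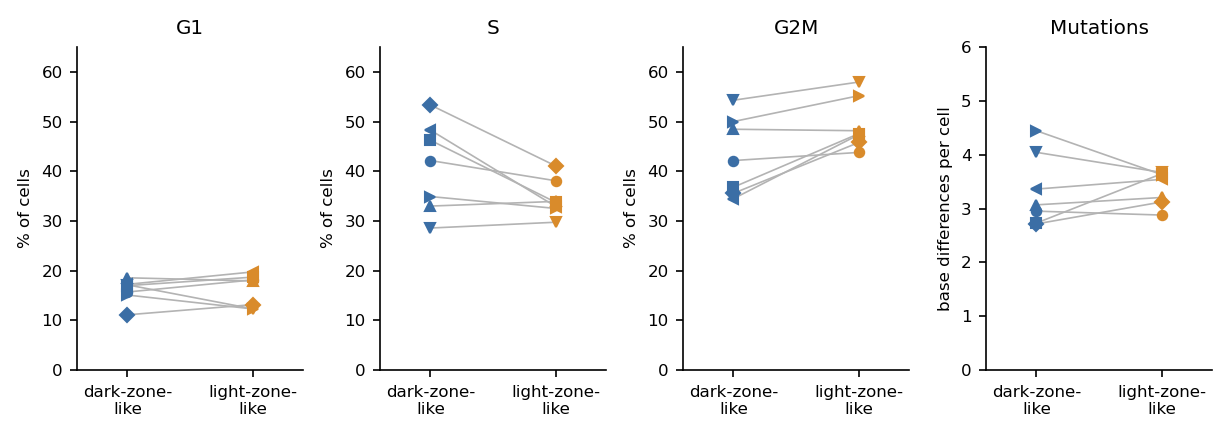
Share of cells in G1, S and G2M (% of the cells of a class) and mean number of variable-region base differences per cell in dark-zone-like (blue) and light-zone-like (orange) CDK2-high cells, with the symbols of the plot of cell numbers and 1 line per mouse. Light-zone-like cells had the higher G2M share in 6 of 7 mice, and lines for mutations rise in 4 mice and fall in 3.

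The same rule was applied to CDK2-low cells of the same mice to ask whether the zone difference was the same there. It found 2430 light-zone-like and 81 dark-zone-like CDK2-low cells, with 2 to 20 dark-zone-like cells by mouse. Only 1 mouse reached 20 cells in both classes, and the comparison was made at a minimum of 8 cells, chosen after these numbers were seen, with 6 mice in the CDK2-low and 7 in the CDK2-high pool. The zone difference differed between the pools in 177 of 9018 genes (1.96%) by the edgeR interaction test, 128 of them more positive in CDK2-high cells. Of the 22 mitosis genes 16 were among these 128, and their median log2 fold change was -2.29 in CDK2-low against -0.05 in CDK2-high cells. *Cenpf*, a kinetochore protein of G2 and mitosis, was 3.61 ± 0.23 more positive in CDK2-high cells (log2 fold change -3.58 in CDK2-low and 0.03 in CDK2-high cells), followed by *Hmmr* (3.34), *Aspm* (3.34), *Plk1* (3.05) and *Birc5* (2.92). In CDK2-low cells 38 of 81 dark-zone-like cells (46.9%) were in G2/M against 99 of 2430 light-zone-like cells (4.07%), while in CDK2-high cells the shares over all mice were 43.1% and 48.6%. The G2/M gene set shares many members with the mitosis list, so these shares are not a measurement separate from those genes. Within phases, with strata of at least 5 cells, which left 7 strata of CDK2-low and 21 of CDK2-high cells, 0 of 7705 genes passed the edgeR interaction test and 615 had an unadjusted p below 0.05. In CDK2-low cells alone, 465 genes passed in this fit, against 1866 without the phases. In the fit without the phases, the zone difference was more negative in CDK2-high cells for *Atg4a* (-1.29), *Gatm* (-1.26), *Apex1* (-1.24), *Scaper* (-1.17) and *Irf2bp2* (-1.14). In CDK2-low cells their log2 fold changes were 1.23, 1.46, 1.06, 1.54 and 0.995, and in CDK2-high cells -0.07, 0.19, -0.18, 0.37 and -0.15. None of these genes was called lower in light-zone-like CDK2-high cells. Of 21 *Myc* and growth genes 5 were more negative in CDK2-high cells (median difference -0.46, with a median of 0.30 in CDK2-low cells), as were 2 of 14 glycolysis genes. No member of the CD40 and NF-kB list (18 tested) was called different between the pools, and its median was 0.95 in CDK2-low cells.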

How the data were processed

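Single-cell 5′ libraries, with hashtag and B cell receptor libraries, came from 1 CDK2-high and 1 CDK2-low pool of GC B cells of the same mice. The authors deposited UMI counts per gene and cell barcode, made with Cell Ranger on mm39 (version 6.0.1 in the submitters' processing notes and cellranger 8.0.1 in the matrix header), and assembled contigs. The notes also name Seurat 5.1.0.

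Barcodes were kept from 200 detected genes upward, provided mitochondrial transcripts made up less than 10% of UMIs. Mice were assigned with HTODemux (Seurat 5.3.0, quantile 0.99) over hashtags with 10 or more UMIs in at least 50 cells, and hashtag doublets and negatives were left out. No other doublet caller was run. The 7 mice are separate animals, and all share 1 library per pool. The labels do not say whether they were sorted together.

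The deposited counts were summed per mouse and class (at least 20 cells) and tested with edgeR 4.0.16 (R 4.3.3): filterByExpr, TMM, quasi-likelihood test, mouse as a block since both classes come from each mouse, and Benjamini-Hochberg adjustment over all genes tested at 0.05. CPM of genes that entered the test are TMM-scaled; those of marker genes and of genes below the filter are UMIs per 1000000 without that scaling. Shares and mutations were compared by exact two-sided sign-flip tests over mice, with all sign patterns enumerated in Python 3.11.15. Exact intervals for UMI counts came from scipy 1.17.1. Phases came from CellCycleScoring. Mutations were base differences from the most frequent sequence of the B1-8hi pairing. Depth strata needed 5 cells per class. The test across genes was also tested on simulated counts with known changes.

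The classes, members and gene lists were chosen with earlier results of these data known. The genes named are the 12 largest rises and falls with an average log2 CPM above 5 and 1 direction in all mice, up to 4 called members per list, 6 fixed genes (*Myc*, *Foxo1*, *Ccnd2*, *Ccnd3*, *Bcl6*, *Cd40*) and, between pools, the 5 largest in each direction. Rule genes, immunoglobulin, mitochondrial and ribosomal protein genes and unnamed gene models were left out of that choice. Other list members and markers named were chosen after their values were seen. A few list members are not reported here. Gene coordinates are GENCODE vM39 on GRCm39 and promoters RefSeq on GRCm38.p6, with no coordinates converted. Intervals cover counting error only. DESeq2 1.42.0 and the other alternatives are described in the closing section.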

Additional observations from a re-analysis of the deposited data

Results flagged for a closer look

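In 192 checks of the 7 mice of a class for a single mouse far from the others, 16 were found. The threshold was Dixon's 95% critical value, which chance passes in about 1 in 20 groups of normal values. Mouse M5 stood apart in *Slfn2* (21.26 CPM, the highest dark-zone-like sum), *Lmo7* (17.77 CPM, the lowest light-zone-like sum) and *Gcsam* (504.7 CPM, the lowest dark-zone-like sum). Mouse M3 stood apart among the light-zone-like sums in *Selenop* (48.23 CPM) and *Hmces* (726.5 CPM), and in the share of switched heavy chains, which was 85.66% in its light-zone-like cells and 95.89% in its dark-zone-like cells. Mouse M6 stood apart in light-zone-like *Bcl2l1* (18.22 CPM) and *Pkm* (345.1 CPM) and in dark-zone-like *Ifi30* (231.5 CPM) and *Bcl6* (287.8 CPM). Mouse M7 stood apart in dark-zone-like *Cd69* (18.62 CPM) and *Cd38* (6.982 CPM), mouse M10 in light-zone-like *Polh* (134.7 CPM) and dark-zone-like *Srebf2* (122.4 CPM), mouse M1 in dark-zone-like *Lmo4* (64.5 CPM) and mouse M4 in light-zone-like *Cdc6* (90.43 CPM).

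The zone difference differed between CDK2-high and CDK2-low cells by the edgeR interaction test in 10 named genes. On the log2 scale it was more positive in CDK2-high cells by 3.61 for *Cenpf*, 3.34 for *Hmmr*, 3.34 for *Aspm*, 3.05 for *Plk1* and 2.92 for *Birc5*. The difference was -1.29 for *Atg4a*, -1.26 for *Gatm*, -1.24 for *Apex1*, -1.17 for *Scaper* and -1.14 for *Irf2bp2*.

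Hashtag 5, which is listed for no mouse, was present at 10 or more UMIs in 206 cells of the CDK2-high pool and in 219 cells of the CDK2-low pool, and these cells entered no comparison.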

How the results depend on the processing

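The classes differ in depth, all mice share 1 library per pool, the dark-zone-like class is small (35 cells in mouse M6) and free RNA was not measured. Against 3920 genes called, 2309 of 7099 were called at matched depth, 1850 of 6997 after thinning, and, in alternatives chosen after seeing the data, 1947 of 7563 in the deepest stratum and 1911 of 5308 within depth and phase. The fit at matched depth held the same cells as the fit over all cells, and the other 3 held fewer. Strata of a mouse were counted as separate pairs at matched depth (42 sums from 7 mice) and within depth and phase (74 sums), although they are not independent. The cause of the lower counts was not tested. Upper-quartile scaling, DESeq2, no filters, other class rules, other hashtag calls and leaving out each mouse (3520 to 3819) stayed within 1.5 times the count.

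With the mouse as a block the 2 classes of each mouse were paired, and without the replicate block 3712 genes were called. None of the 88 genes named by the rule on size and lists changed direction in an alternative that tested it. At matched depth 83 could be tested and 9 lost their call (*Arhgef1*, *Hspd1*, *Ccne1*, *Gins2*, *Cdc6*, *Ung*, *Bak1*, *Foxo1* and *Bcl6*), and after thinning 12 of 82 did (*Arhgef1*, *Rgs13*, *Klf2*, *Cdkn2c*, *Ccne1*, *Gins2*, *Cdc6*, *Ung*, *Bak1*, *Bcl2l11*, *Foxo1* and *Ssr4*), and *Bak1* also without mouse M1. Other genes given by name, such as *Ccne2* and *Ctss*, lost their call too, and *Btk*, *Blnk* and *Cdk2*, which were not called, changed sign between fits.

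The G1 difference (light minus dark, percentage points) was -3.48 after thinning and -0.348 to 0.874 without 1 mouse. The G2/M difference was 4.97 with stricter classes and 5.20 to 7.401 without 1 mouse, where the exact p passed 0.05 in the fit without M5 alone and the smallest p that 6 mice allow is 0.0312. The difference in mutations was -0.264 with stricter classes and -0.0898 to 0.199 without 1 mouse. For these values the cause was not tested.

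Between pools 177 genes were called, 108 to 184 without 1 mouse (108 without M5), and 0 within phases by edgeR (615 at an unadjusted p below 0.05), a fit chosen after seeing the data. The comparison fixed at 20 cells could not be fitted, since 1 CDK2-low mouse reached it.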

Other observations

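Several large gene families, chosen after their values were seen, moved together at small sizes. Of 80 tested cytosolic ribosomal protein genes 78 were higher in dark-zone-like and 0 in light-zone-like cells by the edgeR test (median log2 fold change -0.31), and 76 were so at matched depth (median -0.22). Of 46 proteasome subunit genes 34 were higher in dark-zone-like cells and 1 in light-zone-like cells (median -0.37), and 31 and 1 at matched depth (median -0.20). All 8 tested genes of the CCT chaperonin, which folds actin and tubulin, were higher in dark-zone-like cells in both fits (medians -0.45 and -0.27). Over all genes tested the share higher in dark-zone-like cells was 23.2%, and 16.7% at matched depth.

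Of 17 aminoacyl-tRNA synthetase genes 9 were higher in dark-zone-like cells over all cells, 5 at matched depth and 2 after thinning. Of 49 cytosolic and ER heat shock genes 19 were higher in dark-zone-like and 5 in light-zone-like cells (median -0.14), and 11 and 5 of 41 at matched depth (median -0.06). Mitochondrially encoded genes went the other way, with 11 of 13 higher in light-zone-like cells in both fits (medians 0.21 and 0.12), 8 after thinning, 5 within depth and phase together and 3 among cells of the deepest stratum alone (median 0.05).

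Some list genes below the filter on low counts had more CPM in light-zone-like cells, and those named were chosen after their values were seen. *Egr3* had 42 UMIs in light-zone-like and 1 in dark-zone-like cells (ratio in CPM 11.1, 95% exact interval 1.89 to 449), and *Nr4a1*, a reporter of B cell receptor signals, had 111 and 9 (ratio 3.26, interval 1.66 to 7.32). *Irf4*, which T cell help and receptor signals induce, had 190 and 24 UMIs (ratio 2.09, interval 1.37 to 3.35). *Hhex*, a regulator of memory B cells, had 52 and 1 UMIs (ratio 13.8, interval 2.36 to 554). Other members below the filter had intervals that included equal levels. Among them were *Nr4a3* (ratio 0.529, interval 0.0758 to 5.85), *Atf3* (1.53, 0.587 to 5.08) and *Cd80* (1.27, 0.811 to 2.06). *Bcl2a1a* (1.8, 0.7 to 5.89) and, on the memory list, *Ski* (0.952, 0.341 to 3.28) were others. Intervals cover counting error only.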
